A study of Drosophila melanogaster with 4 samples.

Results

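The Antennapedia and bithorax Hox complexes of Drosophila melanogaster, together with their flanks, were examined for H3K36me1, the monomethylated form of lysine 36 of histone H3, in adult heads. The region around the Antennapedia complex was 3R:2380001-2930000 and that around the bithorax complex was 3R:12380001-12900000, in FlyBase release 5. Cut into consecutive windows of 1 kb, these regions gave 1070 windows, out of 27906 on the arm and 168724 on all sequences of the file headers. The regions were selected on the cluster positions of these same lists, in which both stood out as long stretches without clusters, so their low coverage is a description and carries no test.

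Heads of wild-type Oregon-R flies (Oregon-R-modENCODE), stage mixed adult, were profiled by ChIP-seq, the sequencing of chromatin precipitated with an antibody. The series has 2 ChIP samples and 2 inputs, which are chromatin sequenced without the antibody step. All samples share the wild-type genotype, and the labels name no treatment. Flies came from population cages and heads were separated from bodies by sieving, so each sample pools many animals and all cell types of the head. Per ChIP replicate the authors deposited 1 list of clusters, meaning regions of significant enrichment, and they added 1 list for the replicate set, called the joint list here. On 3R the lists held 1186 clusters in replicate 1, 1189 in replicate 2 and 1679 in the joint list. Read depth is unknown, because the lists hold positions and scores only. A base outside the clusters missed the authors' threshold, which does not show that the mark is absent there. Nothing in the labels says that the replicates came from separate collections, so their spread may be technical.

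Hox genes encode homeodomain transcription factors that give body segments their identity along the head-to-tail axis. In flies the anterior genes lie in the Antennapedia complex and the posterior genes in the bithorax complex, and both are classic targets of Polycomb repression and of trithorax group activation. Methylation of H3K36 is generally found over transcribed chromatin, and the trithorax group protein Ash1 is a methyltransferase for this residue.

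The Antennapedia complex was taken from the lower end of lab to the upper end of Antp (3R:2487149-2824950, 337.8 kb), and the bithorax complex from the lower end of Ubx to the upper end of Abd-B (3R:12482345-12797958, 315.6 kb). Gene positions were those of the Release 6 gene table less 4174278 bases, and this constant was not checked against an alignment of the builds. Left and right flank mean the side of lower and of higher coordinates. The gene table gives spans without strands, exons or introns, so a cluster can be placed inside a gene but not in an exon, an intron or a promoter.

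Neither complex held a base that both replicates placed in a cluster. In the bithorax complex 0 of 316 windows were touched, in either replicate or in the joint list. In the Antennapedia complex clusters covered 0.540% of the bases in replicate 1 and 0.510% in replicate 2, a mean of 0.525% ± 0.0213 (SD, n = 2), and 2.12% in the joint list. These values came from a single cluster in each replicate, at different positions inside Antp. The rest of 3R was covered to 24.9% in replicate 1 and 23.9% in replicate 2, a mean of 24.4% ± 0.712 (SD, n = 2), and to 32.9% in the joint list. The difference was not tested, because the regions were selected on these values.

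Counted by window, 2 of the 338 windows of the Antennapedia complex were touched in replicate 1, 3 in replicate 2 and 10 in the joint list. Over the whole arm 27.7% of windows were touched in replicate 1, 26.7% in replicate 2 and 36.9% in the joint list. No window of either complex was touched in both replicates, whereas 24.1% of the windows of 3R were.

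**Figure D1:**
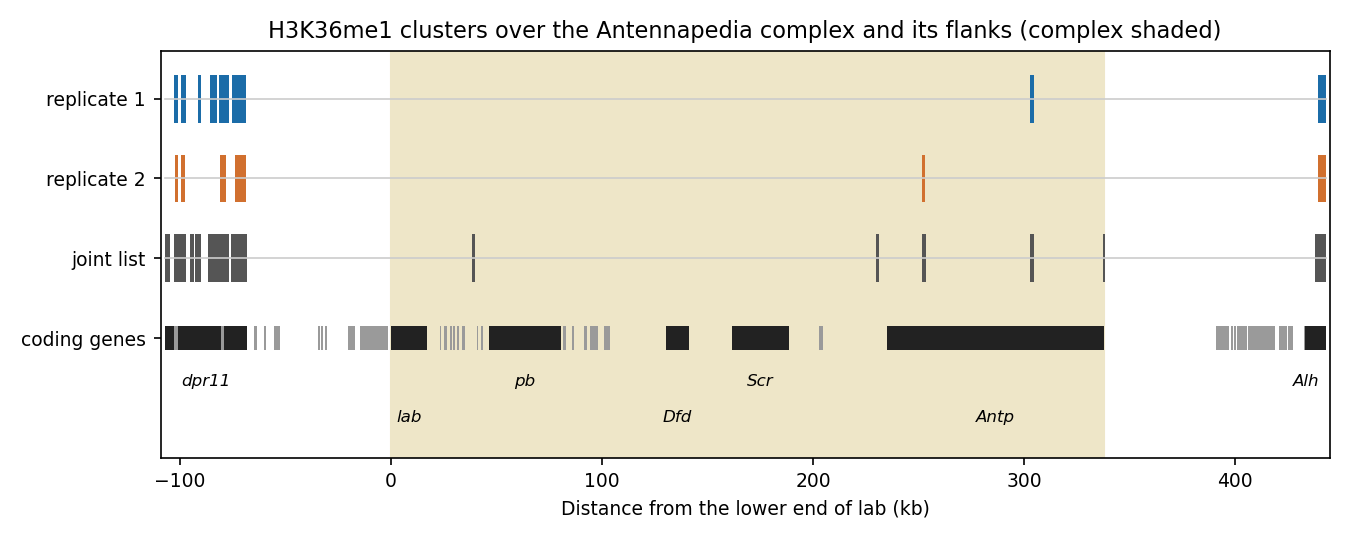
Clusters of the 3 lists (coloured bars, rows) over the Antennapedia complex and its flanks, against distance in kb from the lower end of lab; the lowest row shows protein-coding genes, with named genes in black, and shading marks the complex. Clusters crowd over dpr11 on the left, a single cluster per replicate lies in Antp, and lab, pb, Dfd and Scr carry none in any list.

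Of the 8 Hox genes, 7 held no cluster base in either replicate or in the joint list. In the Antennapedia complex these were lab, pb, Dfd and Scr, which act in the head and the first thoracic segment. The gene lab, most anterior in the complex, lay 68.6 kb from the nearest cluster in replicate 1, 68.7 kb away in replicate 2 and 21.1 kb away in the joint list. For pb, which directs the identity of adult mouthparts, the distances, in the same order, were 115.0 kb, 115.1 kb and 6.54 kb. Dfd, needed in maxillary and mandibular segments, lay 161.9 kb, 110.5 kb and 89.0 kb away. Scr, which acts in the labial and first thoracic segments, lay 114.4 kb, 63.0 kb and 41.4 kb away. The shorter distances of the joint list came from isolated narrow clusters that it alone held.

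In the bithorax complex Ubx, abd-A and Abd-B, which specify the posterior thorax and the abdomen, were likewise free of clusters. Ubx spans 77.8 kb, and its nearest cluster was 25.6 kb away in replicate 1, 25.0 kb away in replicate 2 and 24.8 kb away in the joint list. For abd-A the distances were 158.5 kb, 158.5 kb and 158.4 kb. For Abd-B they were 16.3 kb, 16.3 kb and 16.2 kb. All lists placed the nearest clusters of this complex at almost the same distances, unlike those of the Antennapedia complex.

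Antp, the thoracic Hox gene whose misexpression in the head turns antennae into legs, was the exception. Clusters covered 1.77% of its 103.0 kb in replicate 1, 1.67% in replicate 2 and 4.31% in the joint list. In replicate 1 the cluster (3R:2790084-2791909, 1826 bases) lay 33.0 kb from the upper end of the gene. In replicate 2 the cluster (3R:2738694-2740417, 1724 bases) lay 16.7 kb from the lower end. The clusters shared no base, and 49.7 kb separated them. Each scored below the middle of its list, the score being the authors' own value per cluster. Of the clusters of replicate 1, 28.1% scored lower than the first. The second was lower in its list, with 5.27% of the clusters of replicate 2 below it.

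The joint list repeated both Antp clusters and added a narrow cluster of 1333 bases across the upper end of the gene. It also held clusters at 3R:2525414-2526984, over the gene of the long noncoding RNA CR33938 among the cuticle genes, and at 3R:2717140-2718255, between Scr and Antp outside any annotated gene. These 5 clusters scored between 0.278 and 0.396, against a median of 0.425 for clusters of the joint list on the rest of 3R. No cluster of either replicate overlapped the 3 that the joint list added.

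Width matters for such counts, since a wide gene has more bases that a cluster can touch. All 8 Hox genes span at least 10 kb, from 10.6 kb for Dfd to 103.0 kb for Antp. On 3R, 445 protein-coding genes are that wide, the 8 Hox genes included. Of these, 64.9% held cluster bases in both replicates, against 1 of 8 Hox genes. In the joint list the share was 80.2%, again against 1 of 8. At least 50% of the gene lay in clusters in both replicates for 29.7% of the wide genes and for 0 Hox genes. The median covered share of the wide genes was 27.7% in replicate 1 and 24.6% in replicate 2, and over the Hox genes it was 0 in both. Among the 289 wide genes with cluster bases in both replicates, 1 had a lower mean share than Antp, and their median was 48.6%. The Hox genes lie in regions selected for their lack of clusters in these same lists. These contrasts follow from that choice and carry no test.

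**Figure D2:**
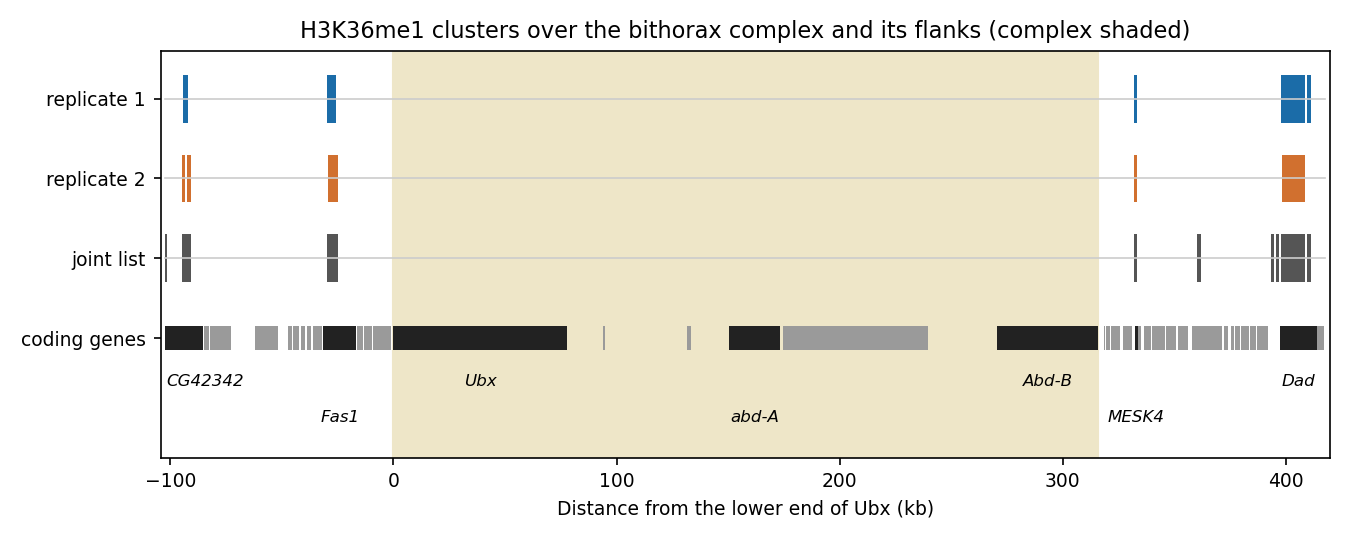
Clusters of the 3 lists over the bithorax complex and its flanks, against distance in kb from the lower end of Ubx, drawn as for the Antennapedia complex. The shaded complex of 315.6 kb is empty in every list, between the Fas1 cluster on the left and the narrow MESK4 cluster on the right.

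The other listed protein-coding genes of the Antennapedia complex were also empty. Of these, zen, zen2, bcd, ftz and Ama held no cluster base in any of the 3 lists. Among these zen patterns the dorsal embryo, bcd is the maternal gradient factor of the anterior embryo, ftz is a pair-rule gene, and Ama encodes a secreted immunoglobulin-domain protein. Their nearest replicate clusters lay between 46.7 kb (ftz, replicate 2) and 169.8 kb (Ama, replicate 1) away. The 8 cuticle protein genes between lab and pb, Edg84A and Ccp84Aa to Ccp84Ag, also held none.

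The 7 listed noncoding RNA genes of the complexes held no cluster base in any list. These were mir-10 and mir-993 in the Antennapedia complex, and mir-iab-4, mir-iab-8 and the long noncoding RNAs bxd, iab4 and iab8 in the bithorax complex. Of all 26 long noncoding and antisense RNA genes that start in the complexes, 0 were touched in either replicate and 1, CR33938, was touched in the joint list. The 2 microRNAs of the iab locus share the same span in the gene table and cannot be told apart here. The longest of these genes, iab8, spans 92.1 kb between abd-A and Abd-B, and its nearest cluster lay 65.4 kb away in replicate 1 and 65.3 kb in replicate 2. Of 62 annotated genes that start inside the complexes, 43 in the Antennapedia complex and 17 in the bithorax complex held no cluster base in either replicate, as did 77.5% of all genes of 3R. The median width of the 62 genes was 0.977 kb, against 1.78 kb over all genes of 3R. The remaining 2 were Antp and CG46458, a gene annotated over part of Antp that held the cluster of replicate 2.

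The intervals between the main genes were also without replicate clusters. They hold enhancers, insulators and Polycomb response elements as well as other genes such as bxd, iab8 and the cuticle genes. Between Ubx and abd-A, 72.8 kb held no cluster in any list, and between abd-A and Abd-B 97.2 kb held none. In the Antennapedia complex the intervals from Ama to Dfd (26.6 kb), from Dfd to Scr (20.7 kb) and from Scr to ftz (14.3 kb) were empty in all 3 lists. From lab to pb (29.2 kb) the replicates listed none and the joint list covered 5.38%. The same held from Scr to Antp (46.3 kb), where the joint list covered 2.41%.

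**Figure D3:**
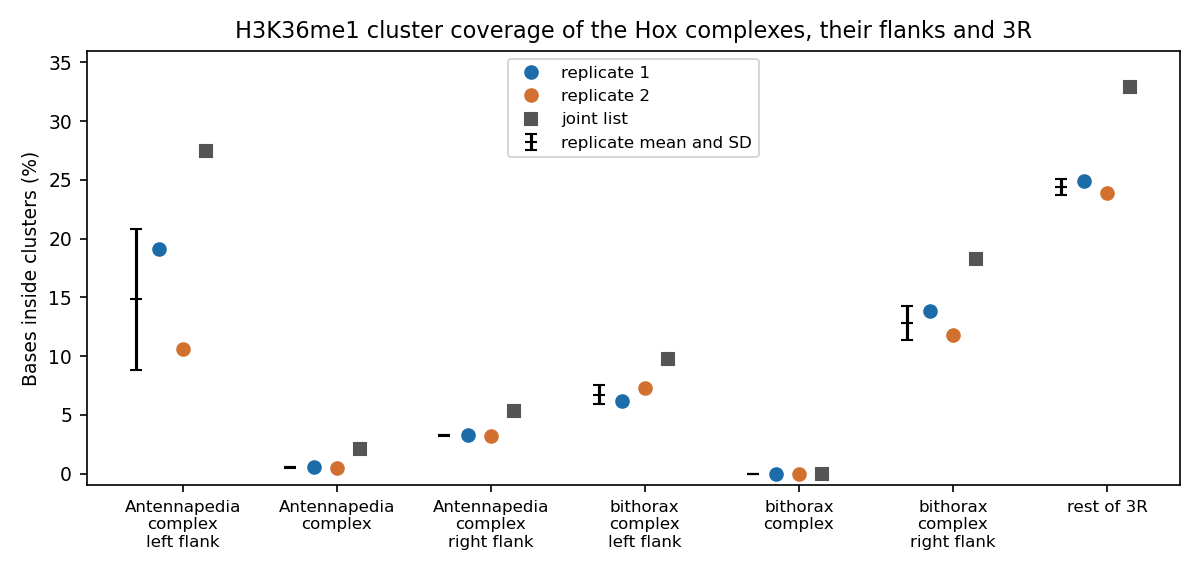
Percentage of bases inside clusters (vertical axis) in each complex, each flank and the rest of 3R, for replicate 1, replicate 2 and the joint list, with the replicate mean and SD (n = 2) as a bar. The bithorax complex sits at 0 in all lists and the Antennapedia complex at 0.525%, below each flank and below the rest of 3R at 24.4%.

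The flanks lay between the complexes and the rest of the arm. Together they were covered to 10.6% in replicate 1 and 8.22% in replicate 2, a mean of 9.43% ± 1.71 (SD, n = 2), and to 15.3% in the joint list. The left flank of the Antennapedia complex was covered to 19.1% in replicate 1 and 10.6% in replicate 2, and here the replicates were farthest apart. Its right flank was covered to 3.27% and 3.24%. The left flank of the bithorax complex was covered to 6.15% and 7.29%, and its right flank to 13.8% and 11.8%. Every flank stood above its complex and below the rest of 3R in both replicates. The flanks belong to regions selected for their cluster-free stretches, so this order follows in part from that choice and was not tested. Of the bases that either replicate placed in clusters, both placed 68.2% in the flanks and 78.0% on the rest of 3R, but 0% in the complexes, where either replicate covered 3.55 kb in all.

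Flank clusters lay inside few genes. All 13 flank clusters of replicate 1 and all 10 of replicate 2 overlapped a protein-coding gene, as did 88.7% and 90.6% of the clusters of 3R. In the joint list 14 of 16 did, against 85.8% on 3R. To the left of the Antennapedia complex, every replicate cluster lay in dpr11, an immunoglobulin-superfamily gene that reaches into the region from outside. Over its whole span it was covered to 31.9% in replicate 1 and 17.7% in replicate 2. The small genes CG1137 and CG2336 lie within the span of dpr11, so their high shares (100% and 73.4% for CG1137, 100% in both for CG2336) come from the same clusters.

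To the right of the Antennapedia complex the single cluster lay in Alh, which encodes a zinc-finger chromatin protein. It measured 7042 bases in replicate 1 and 7272 bases in replicate 2 and scored above 89.3% and 91.8% of its list. Over its whole span, which runs beyond the region, Alh was covered to 48.5% and 47.9%. On the left of the bithorax complex the clusters lay in CG42342, which also reaches in from outside and was over its whole span covered to 30.6% and 35.7%, and in Fas1, which encodes the neural cell adhesion protein Fasciclin 1 and was covered to 27.7% and 30.6%. On the right they lay in MESK4, with the noncoding RNA gene CR45592 beside it, and in Dad, the inhibitory Smad of the BMP pathway. Dad was covered to 77.1% in replicate 1 and 64.1% in replicate 2, by a main cluster of 10.7 kb and 10.5 kb that scored above 91.2% and 93.3% of its list. The MESK4 cluster covered 76.6% and 74.6% of its gene and was narrow, 1462 and 1498 bases, with 5.77% and 3.46% of each list scoring lower. Keap1, the oxidative stress sensor that reaches beyond the right end of the region, was covered, by clusters outside the region, to 23.6% and 27.4%. The noncoding RNA genes CR46132 and CR46131, within dpr11, were at 0 in both replicates and at 63.8% and 50.1% in the joint list.

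Most flank genes were as empty as the complexes. Of the 85 genes that start in the flanks, 8 held cluster bases in both replicates and the other 77 in neither, where 17.3% of all genes of 3R held them in both. In the joint list 11 did, against 29.4% of all genes of 3R. At least 50% of the gene lay in clusters in both replicates for 5 flank genes, against 11.1% of all genes of 3R. Among the empty flank genes were general-purpose genes, chosen here after their values were seen: Taf1 (a subunit of the general transcription factor TFIID), alphaTub84B (alpha-tubulin), CCT3 (a chaperonin subunit) and Sf3a1 (a splicing factor) had no cluster base in any list. Over the arm, 3260 of 4206 genes held none in either replicate.

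Median scores of flank clusters, taken within each list, differed little from those of the rest of 3R. The median was 0.633 for 13 flank clusters against 0.668 for 1172 others in replicate 1, and 0.610 for 10 against 0.621 for 1178 in replicate 2. The sign of this difference depended on how clusters were delimited or selected.

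All of the bithorax complex and most of the Antennapedia complex sat inside long cluster-free stretches of 3R. No cluster of either replicate fell within 3R:12457306-12814235, a stretch of 356.9 kb that contained the whole bithorax complex. It began in Fas1, 25.0 kb below Ubx, and ended 16.3 kb above Abd-B at the cluster over CR45592 and MESK4. Its edges nearly coincided across the lists, with lengths of 357.6 kb (replicate 1), 356.9 kb (replicate 2) and 356.6 kb (joint list). It ranked first on the arm among stretches free of clusters in both replicates and first in the joint list, and second within each replicate list.

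Over the Antennapedia complex the corresponding stretch, 3R:2418519-2738693, measured 320.2 kb and ranked second on the arm. It began in dpr11, 68.6 kb below lab, and ended inside Antp, so it held 74.5% of the complex. Here the lists differed. In replicate 1 the stretch ran on to the other Antp cluster and measured 371.6 kb, the longest on 3R in that list. In replicate 2 it measured 320.3 kb, at rank 3. In the joint list isolated clusters shortened it to 190.2 kb, from the cluster over CR33938 to the cluster below Antp, again at rank 3. The next longest stretch free of both replicates' clusters on 3R measured 268.4 kb, and the median of all 1226 was 3.92 kb. These ranks follow from the way the regions were chosen.

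**Figure D4:**
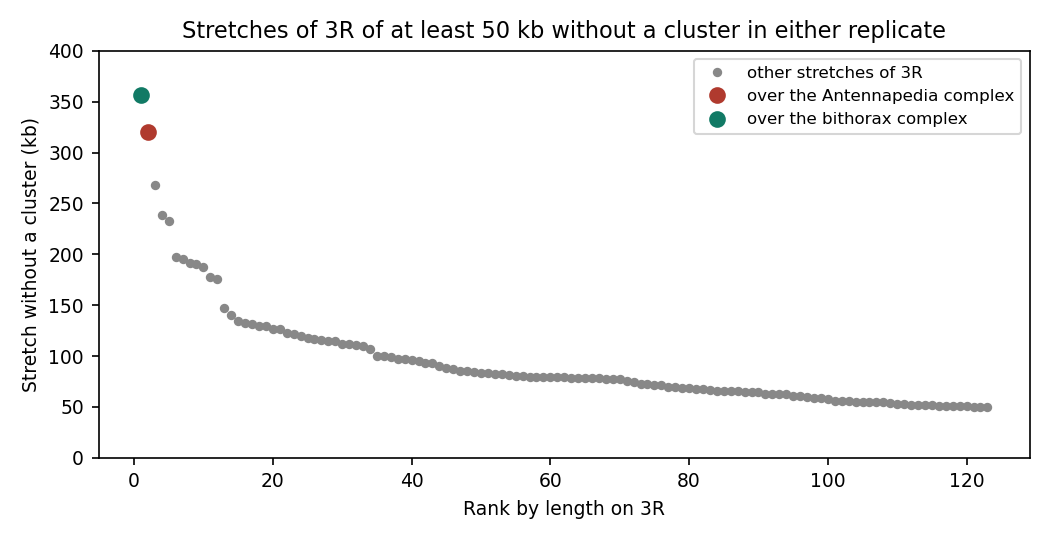
Length in kb (vertical axis) of the stretches of 3R of at least 50 kb without a cluster in either replicate, by rank. The stretches over the bithorax complex (356.9 kb) and the Antennapedia complex (320.2 kb) rank first and second, ahead of the next at 268.4 kb.

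The stretches were not void of genes. That over the bithorax complex held 17 whole protein-coding genes, of which 11 lay outside the complex, and had 4.76 per 100 kb. That over the Antennapedia complex held 30, of which 12 lay outside the complex, and had 9.37 per 100 kb, against 12.1 per 100 kb on 3R. The 7 empty Hox genes lay in these same stretches, of 320.2 or 356.9 kb. The 126 wide coding genes of 3R without a cluster base in either replicate, the 7 Hox genes included, lay in stretches with a median of 79.4 kb. This difference follows from the way the regions were chosen.

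Gene lists drawn up by function from elsewhere on 3R gave a range of values. All 3 lists were drawn up with earlier results of these data known. Of 22 developmental regulators outside the complexes, 5 held cluster bases in both replicates, 3 in replicate 2 only and 14 in neither. Over all genes of 3R, 17.3% were touched in both. The median covered share of the regulators was 0 in both replicates, as was that of all genes of 3R. The homeobox gene hth, which encodes a cofactor of Hox proteins, was covered to 97.3% of its 132.0 kb in replicate 1 and 98.8% in replicate 2. The nuclear receptor gene svp was covered to 58.1% and 74.9%, and pros, a homeodomain regulator of neural differentiation, to 51.8% and 55.5%. The GATA factor gene pnr and the homeobox genes slou and tin held no cluster base in any list. Also at 0 in both replicates, tll, fkh and ss were covered to 79.1%, 23.4% and 10.6% in the joint list. Restricted to genes of at least 10 kb, 5 of 12 developmental regulators were touched in both replicates, against 64.9% of the wide coding genes of 3R.

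Of 14 neuronal and photoreceptor genes, 9 held cluster bases in both replicates and 5 in neither, where 17.3% of all genes of 3R held them in both. The median covered share was 22.4% in replicate 1 and 19.6% in replicate 2. Among them Syx1A, the syntaxin of synaptic vesicle release, was covered to 88.1% and 90.3%, and ChAT, which makes acetylcholine, to 68.6% and 69.7%. VAChT, the vesicular acetylcholine transporter gene that overlaps ChAT, was covered to 64.0% and 64.7%. The photoreceptor genes ninaE (the main rhodopsin) and trp (a channel of phototransduction) and the circadian photoreceptor gene cry held no cluster base in any list. Rh3, from the same gene list, was at 0 in both replicates and at 100% in the joint list. All 8 genes of this list of at least 10 kb were touched in both replicates, against 64.9% of the wide coding genes. The photoreceptor genes Rh3, ninaE, trp and cry are narrower, so none of them is among these 8. Of 22 ribosomal protein genes, the widest of 3.28 kb, 2 were touched in both replicates (17.3% over all genes), RpS10a and RpS19b. RpL10Aa was touched in replicate 2 and the joint list. RpS5b and RpS7 held no cluster base in any list. These lists were set side by side without a test.

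**Figure D5:**
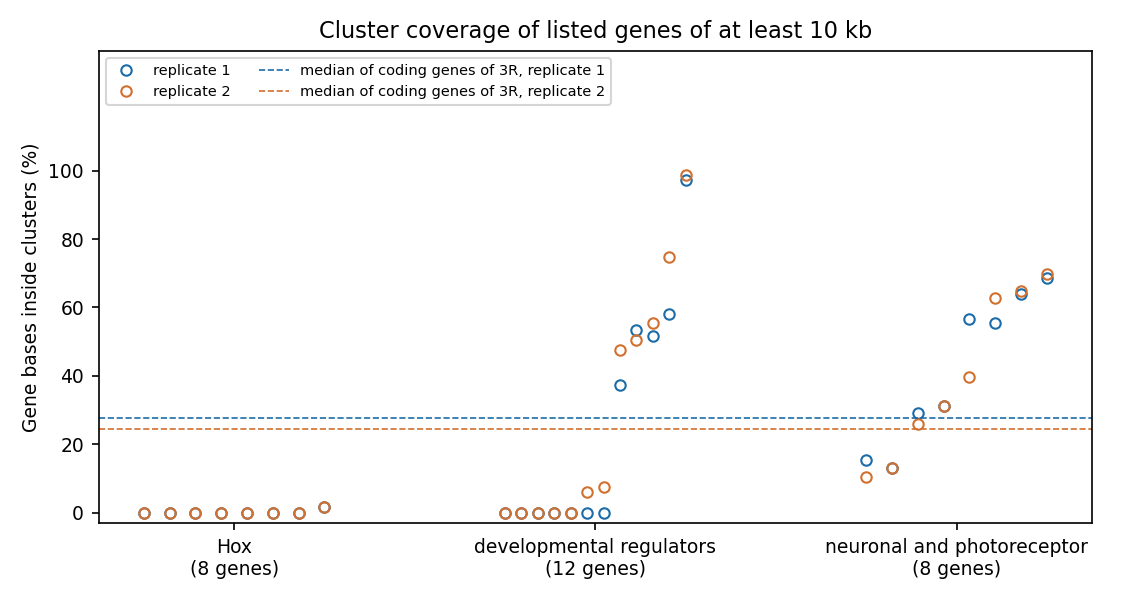
Percentage of gene bases inside clusters (vertical axis) for the listed genes of at least 10 kb, in replicate 1 (blue) and replicate 2 (orange), with dashed lines at the medians of all 445 coding genes of 3R that wide (27.7% and 24.6%). All Hox genes lie at or near 0, and developmental regulators range from 0 to 98.8%. The neuronal and photoreceptor list ranges from 10.4% to 69.7%, and its photoreceptor genes are too narrow to be shown.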

How the data were processed

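Per the submitters' processing notes Bowtie 0.12.7 was used, and per the file headers positions are those of FlyBase release 5. The authors deposited clusters with 1 score each. Not given in the sources used here: unit of the score, cluster caller, its threshold, and the making of the joint list. The score served only to rank and filter within a list. Cluster bases per window and per gene were computed with Python 3.11.15, numpy 2.4.6 and pandas 2.3.3, with matplotlib 3.10.9 for figures. A window or gene was touched with at least 1 cluster base, and a 1 kb window belonged where its midpoint lay. Distances run between edges. Of 4226 genes of 3R in the Release 6 table, 4206 fell on the release 5 arm after subtraction. Covered bases were tested on simulated data and were right for 2000 of 2000 intervals. Inputs, numbered like the ChIP samples, entered no comparison. Named were all Hox, neighbouring and RNA genes of the complexes, the 10 flank genes covered most and those next to the stretches, and the 3 most and least covered genes of the other lists, ties broken by name; 1 of these genes is not reported here. The regions and gene lists were chosen with earlier results of these data known. No test was made, since the regions were selected on these lists.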

Additional observations from a re-analysis of the deposited data

How the results depend on the processing

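The bithorax complex was covered to 0% under each of the 8 alternatives tried for it. Neither replicate held a cluster inside it, so only the joint list could have given another value. In the joint list the Antennapedia complex was covered to 2.12%, the flanks to 15.3% and the rest of 3R to 32.9%; developmental regulators touched were 11, all genes touched were 29.4%, and the Antennapedia stretch was 190.2 kb. In the upper-scoring part these values were 0%, 6.76% and 18.9%, with 0 Hox genes, 4 flank genes, 1 ribosomal protein gene and 10.4% of all genes touched and stretches of 508.0 kb (Antennapedia) and 423.0 kb (bithorax). With clusters of at least 3 kb they were 0%, 6.76% and 20.1%, with 0 Hox, 4 flank and 0 ribosomal protein genes and 11.5% of all genes touched, and the same stretches. Fewer bases and longer stretches follow from removing clusters. With each complex limited to the span of lower gene ends, the Antennapedia complex was at 0% and the flanks at 7.27%, since Antp and Abd-B then count as flank. At least 50% of the gene lay in clusters for 0 Hox, 5 flank and 4 neuronal and photoreceptor genes and 11.1% of all genes. With 1 kb on each side 21.3% of all genes were touched, and among coding genes of at least 10 kb, a choice made after the data were seen, 64.9%. The difference in median score between flanks and the rest of 3R, averaged over the replicates at -0.0229, reversed to 0.0347 after joining clusters over gaps of up to 1 kb, to 0.0502 for clusters of at least 3 kb and to 0.0181 in the upper-scoring part; the cause was not tested. With single replicates, developmental regulators touched ranged from 5 to 8, all genes from 19.3% to 20.5%, the Antennapedia stretch from 320.3 to 371.6 kb and the bithorax stretch from 356.9 to 357.6 kb. No paired analysis was possible because the lists used here come from ChIP samples only, with no other group to pair them with. Depth is unknown, so what it limits cannot be stated.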
